A study of Mus musculus with 4 samples.

Results

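The genes described here encode the contractile apparatus of the mammary myoepithelium, measured in terminal end buds and ducts of the pubertal mouse mammary gland. They are 10 genes, chosen by name and Ensembl gene ID, out of 28399 IDs in the deposited table: Acta2, Myh11, Mylk, Cnn1, Tagln, Actg2, Oxtr, Myl9, Lmod1 and Tpm2. All 10 IDs have a value on each array, and no filter on low values was applied to them. Their names come from the list that defined them, since no other pairing of the table's IDs with symbols was used here.

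Myoepithelial cells form the basal layer of the mammary duct and contract like smooth muscle. In such cells a rise in calcium activates myosin light chain kinase, which phosphorylates the regulatory light chain of myosin. Myosin then pulls on actin filaments, to which tropomyosin and calponin bind. Oxytocin triggers this contraction at milk ejection through its receptor on the myoepithelial cell. In the terminal end bud, the growing tip of the pubertal duct, the outermost layer consists of cap cells, which are regarded as precursors of myoepithelial cells, and the duct behind it carries a differentiated myoepithelial layer. Smooth muscle in the walls of blood vessels uses the same genes.

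Both structures were taken from number 4 (inguinal) glands of pubertal C57/BL6 females that carried no stated genetic change or treatment, and were isolated by collagenase digestion and microdissection. The mice were 5 to 6 weeks old by the age label, whereas the treatment protocol puts killing at 6 to 7 weeks. There were 2 arrays of terminal end buds and 2 of ducts, each from pooled material of about 300 to 400 structures. The submitters call them technical replicates, so the SDs and p-values below measure the spread between arrays of pooled RNA and not between mice.

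The values are log2 expression values from RMA, the standard routine that turns probe brightness into background-corrected, normalized summaries. Array medians lay between 6.20 and 6.41, and over all genes the median difference (terminal end bud minus duct) was 0.11. Differences near that size depend on how the arrays are scaled. Quantile normalization moved each of the 10 genes down by more, for example Mylk from -0.46 to -0.67 and Myl9 from 0.26 to 0.06. All 10 genes were brighter on average than most IDs, from Lmod1, above 68.2% of the IDs, to Acta2, above 99.6%. The number of arrays limits the precision, and detection or saturation calls were not used here. Signed differences below are likewise terminal end bud minus duct, and a fold given as lower is duct over terminal end bud.

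Within this gene group the receptor, the kinase, the myosin heavy chain and the thin filament regulators measured lower in terminal end buds than in ducts, while on the deposited scale both actins and the myosin regulatory light chain did not. Oxtr was 2.81-fold lower, Cnn1 1.95-fold lower and Tagln 1.65-fold lower. Acta2 (0.11), Actg2 (0.01) and Myl9 (0.26) had small differences on the deposited scale. After quantile normalization and median centring Acta2 was at -0.04 and -0.01, and Actg2 was at -0.20 and -0.11 and lower without overlap. Of the 10 genes, 7 were lower in terminal end buds on both arrays than on either duct array, against 19.6% of all genes, and 2 were higher without overlap, against 33.8% of all genes. At an adjusted p under 0.05 and at least 1.5-fold, limma without a brightness trend called 0 of the 10 genes and 0% of all genes. With the trend, which lets the expected variance follow brightness, Oxtr, Cnn1 and Tagln were called lower, against 1.48% of all genes. These 3 calls were not made without either terminal end bud array, in fits that leave 1 array in that group. The 3 differences stayed negative there. The loss of calls over all genes was not counted, so whether it is particular to these genes is not known. The median difference of the 10 genes was -0.52, against 0.11 for all genes. Among IDs above the median brightness, where all 10 genes lie, the median was 0.19. In these bulk samples, fewer myoepithelial cells per structure and less RNA per cell cannot be told apart.

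**Figure D1:**
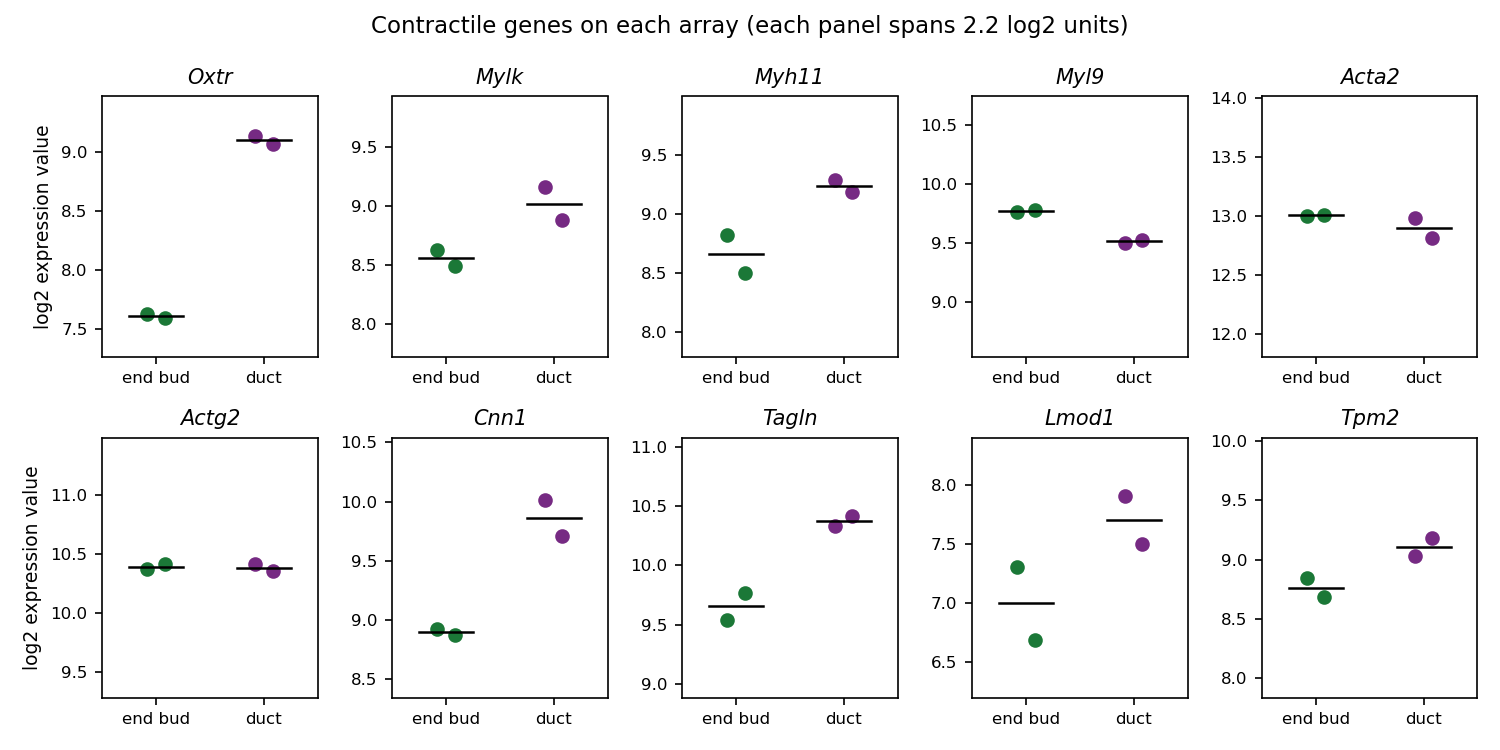
Log2 expression value (vertical axis) of each contractile gene on the 2 terminal end bud arrays (green points) and the 2 duct arrays (purple points), with black lines for the group means. Every panel spans the same height, so that the wide gap of Oxtr (7.62 against 9.11 on average) can be set beside the near-equal values of Actg2 (10.39 against 10.38).

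The promoters of 4 of these genes are shown, picked by their measured differences. Oxtr and Cnn1 had the largest differences, and Acta2 and Myl9 were not lower on the deposited scale. Because of this choice the 4 sequences cannot link motif matches to the differences, and such a link was not tested. Serum response factor, a general activator of smooth muscle genes together with myocardin-family partners, binds the CArG box. This motif was searched as CCNNNNNNGG with A or T at each N, and also with at most 1 G or C among the Ns; it reads the same way on the other strand. RefSeq (GRCm38.p6) gave promoters for 7 of the 10 genes, and the missing ones were Myh11, Tagln and Actg2. Each sequence covers the 250 bases before the annotated start, 5′ to 3′ on the gene's strand, and capitals mark matches to either form of the motif. The start that the table uses for Acta2 may not be its main start site, so no distance from the start is given for its matches.
Acta2 promoter, chr19:34255374-34255623, - strand: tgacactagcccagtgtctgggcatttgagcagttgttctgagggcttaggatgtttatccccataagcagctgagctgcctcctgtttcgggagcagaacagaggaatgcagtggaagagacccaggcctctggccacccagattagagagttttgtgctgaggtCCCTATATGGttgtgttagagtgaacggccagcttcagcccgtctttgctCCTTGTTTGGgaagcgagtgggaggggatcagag
Myl9 promoter, chr2:156775214-156775463, + strand: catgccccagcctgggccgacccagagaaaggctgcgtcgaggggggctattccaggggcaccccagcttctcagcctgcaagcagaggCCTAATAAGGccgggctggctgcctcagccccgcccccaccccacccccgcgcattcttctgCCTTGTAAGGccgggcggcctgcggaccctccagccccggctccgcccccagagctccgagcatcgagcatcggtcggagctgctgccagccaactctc
Cnn1 promoter, chr9:22099003-22099252, + strand: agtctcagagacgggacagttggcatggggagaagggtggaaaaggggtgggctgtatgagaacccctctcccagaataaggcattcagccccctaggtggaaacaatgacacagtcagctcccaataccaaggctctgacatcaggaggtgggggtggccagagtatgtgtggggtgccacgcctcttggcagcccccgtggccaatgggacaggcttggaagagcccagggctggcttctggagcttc
Oxtr promoter, chr6:112489826-112490075, - strand: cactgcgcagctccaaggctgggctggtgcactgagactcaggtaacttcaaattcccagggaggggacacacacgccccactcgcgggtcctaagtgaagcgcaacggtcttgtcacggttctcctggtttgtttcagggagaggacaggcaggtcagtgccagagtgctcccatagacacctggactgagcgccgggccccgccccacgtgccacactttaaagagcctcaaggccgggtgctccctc

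The Myl9 window holds 1 match with only A and T at the Ns and 1 match with a single G, starting 62 bases apart. The Acta2 window holds 2 matches that each have a single G or C among the Ns, starting 50 bases apart. No letters matching either form are in the windows of Oxtr, Cnn1, Mylk, Lmod1 and Tpm2. Among all 32851 promoter windows of the same length, 1.47% hold the strict form and 8.59% hold either form. A match is a string of letters and was not tested for binding, and sites outside these windows were not searched.

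Oxtr (ENSMUSG00000049112) encodes the oxytocin receptor, which couples to Gq proteins and raises calcium in the myoepithelial cell. Its log2 values in terminal end buds were 7.63 and 7.60, while those in ducts were 9.14 and 9.07. Both duct arrays were high and both terminal end bud arrays low, with 1.44 log2 units between the nearest arrays of the groups and at most 0.07 between arrays of the same structure. Terminal end buds averaged 7.62 ± 0.02 (SD, n = 2) against 9.11 ± 0.05 (SD, n = 2) for ducts, giving a difference of -1.49 (SE 0.17, 95% interval -1.94 to -1.04). Of all 28399 genes, 192 (0.676%) had a more negative difference. By limma with no brightness trend the adjusted p over all genes was 0.069, over the threshold of 0.05, and the unadjusted p was 0.00052. When limma's prior variance followed brightness, the adjusted p was 0.0053.

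Mylk (ENSMUSG00000022836) encodes myosin light chain kinase, the enzyme that calcium and calmodulin switch on downstream of the receptor. It measured 8.63 and 8.49 in terminal end buds and 9.16 and 8.88 in ducts. The groups did not overlap, but the 0.25 log2 units between their nearest arrays were less than the 0.27 between the duct arrays. The difference of -0.46 had a 95% interval of -0.98 to 0.06, and limma's adjusted p was 0.29. It ranged from -0.60 without duct array 2 to -0.33 without duct array 1.

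The thick filament is represented by a heavy chain and a light chain that differed in their readings. Myh11 (ENSMUSG00000018830), the smooth muscle myosin heavy chain, measured 8.82 and 8.50 in terminal end buds and 9.29 and 9.19 in ducts. All of its terminal end bud values lay under its duct values, a difference of -0.58 (SE 0.20), just short of the 1.5-fold floor used below, with adjusted p = 0.23 by limma. Without terminal end bud array 2 this difference was -0.42, and without terminal end bud array 1 it was -0.74. Myl9 (ENSMUSG00000067818), the regulatory light chain that Mylk phosphorylates, measured 9.76 and 9.78 in terminal end buds and 9.50 and 9.53 in ducts. Its arrays agreed closely within each structure and lay the other way round, with terminal end buds higher by 0.26 (95% interval -0.19 to 0.70, adjusted p = 0.44 by limma). After quantile normalization its difference was 0.06 and its groups overlapped.

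The heavy chain can be set against the light chain within each array, which removes a constant shift between arrays but not a scale difference that varies with brightness. Myh11 minus Myl9 was -0.94 and -1.27 log2 units in terminal end buds, against -0.20 and -0.34 in ducts. The ratio was therefore lower on both terminal end bud arrays, with a mean difference of -0.84 log2 units, for which no test is given. As Myh11 was lower and Myl9 higher without overlap, this outcome was fixed by the values above and is no independent support. The absolute size of such a ratio has no meaning between genes on an array.

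The thin filament is built from actin, and the 2 smooth muscle actins showed little difference. Acta2 (ENSMUSG00000035783), the alpha smooth muscle actin used widely as a myoepithelial marker, measured 13.00 and 13.01 in terminal end buds and 12.98 and 12.81 in ducts. The groups stood only 0.01 log2 units apart at their nearest arrays, less than the 0.17 between the duct arrays. The difference of Acta2, whose promoter is printed above with its CArG-like matches, was 0.11 (SE 0.18), with a 95% interval of -0.36 to 0.57, or 0.777-fold to 1.49-fold, and adjusted p = 0.77 by limma. Its sign depended on scaling, at -0.04 after quantile normalization and -0.01 after median centring. Acta2 was among the brightest genes of the table; of the 107 other IDs at least as bright, 7 were at least 1.5-fold apart between the structures, and their differences ran from -0.66 to 1.24.

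Actg2 (ENSMUSG00000059430), the gamma smooth muscle actin, measured 10.37 and 10.41 in terminal end buds and 10.41 and 10.35 in ducts. These groups overlapped, and the difference of 0.01 had a 95% interval of -0.44 to 0.46, or 0.738-fold to 1.37-fold (adjusted p = 0.98 by limma). It was -0.20 after quantile normalization and -0.11 after median centring. The actins are closely similar genes, and how far the array's probes separate them is not given in the sources used here.

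Among proteins that bind and regulate the thin filament, Cnn1 and Tagln had the largest differences. Cnn1 (ENSMUSG00000001349) encodes calponin 1, which binds actin and slows the myosin motor. It measured 8.92 and 8.87 in terminal end buds and 10.01 and 9.71 in ducts, with every duct array at least 0.79 log2 units above every terminal end bud array. Averaging 8.90 ± 0.03 (SD, n = 2) in end buds against 9.86 ± 0.22 (SD, n = 2) in the ducts, it gave a difference of -0.96 (SE 0.20, 95% interval -1.49 to -0.44). A more negative difference was held by 882 genes (3.11%). Its promoter window is among the 5 of 7 without a CArG match, and only 8.59% of all windows hold 1 of either form. By limma the adjusted p was 0.14, and with the brightness trend it was 0.021.

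Tagln (ENSMUSG00000032085) encodes transgelin, also called SM22, an actin-binding protein abundant in smooth muscle. It measured 9.54 and 9.77 in terminal end buds and 10.33 and 10.42 in ducts, and the groups lay 0.56 log2 units apart at their nearest arrays. The difference was -0.72 (SE 0.19, 95% interval -1.22 to -0.23), with adjusted p = 0.17 by limma without and 0.032 with the brightness trend. Within arrays the 2 regulators did not separate the structures when set against each other, as Cnn1 minus Tagln was -0.62 and -0.90 in terminal end buds and -0.31 and -0.72 in ducts.

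Lmod1 (ENSMUSG00000048096) encodes leiomodin 1, which starts new actin filaments in smooth muscle. It measured 7.31 and 6.69 in terminal end buds and 7.91 and 7.50 in ducts, so that its arrays were the most scattered of the 10 genes. The difference of -0.71 (SE 0.30, adjusted p = 0.28 by limma) was -1.02 without terminal end bud array 1 and -0.40 without terminal end bud array 2. Tpm2 (ENSMUSG00000028464), beta-tropomyosin, which lies along the actin filament, measured 8.84 and 8.68 in terminal end buds and 9.03 and 9.18 in ducts. Its groups were 0.20 log2 units apart at their nearest arrays, and its difference was -0.35 (SE 0.18, adjusted p = 0.36 by limma).

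**Figure D2:**
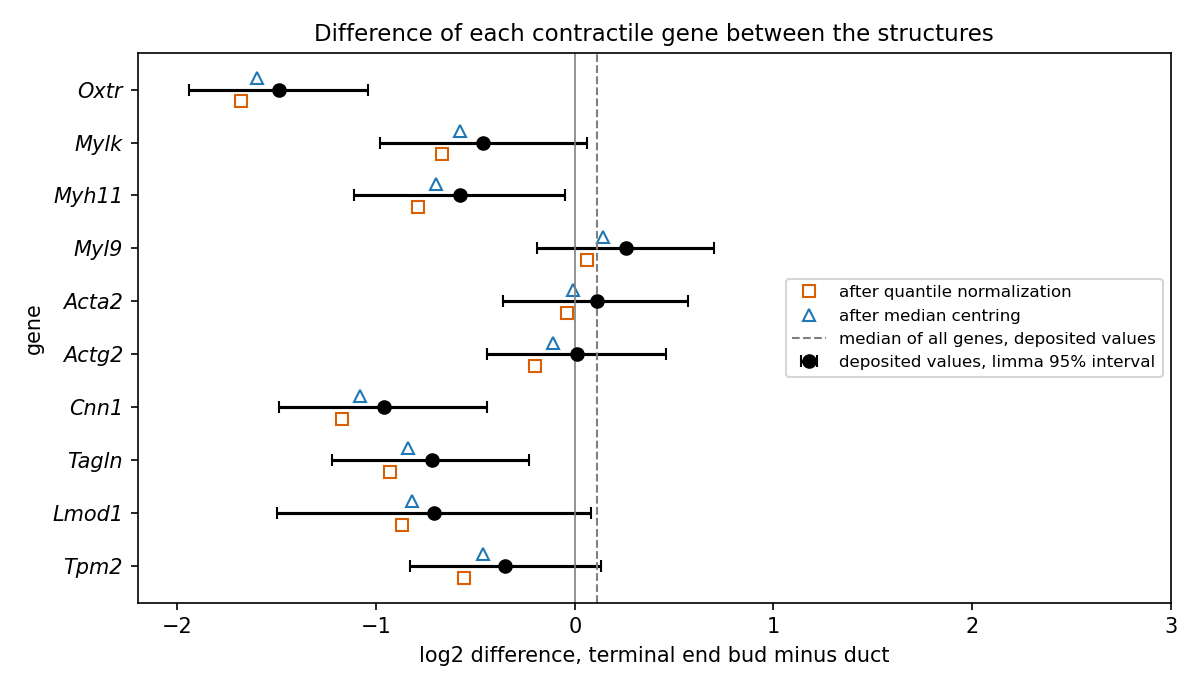
Log2 difference between terminal end buds and ducts (horizontal axis) for each contractile gene. Black points with bars are the deposited values with limma's 95% interval, open squares follow quantile normalization, open triangles follow median centring, and the dashed line is the median of all genes at 0.11; the intervals of Oxtr, Myh11, Cnn1 and Tagln lie below 0.

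The counts for the contractile genes were set beside those of all genes. At an adjusted p under 0.05 with at least 1.5-fold change, limma without the brightness trend called 0 of the 10 genes, and 0% of all genes lower and 0% higher. The unadjusted p was under 0.05 and the value lower in terminal end buds for 4 of the 10 (Oxtr, Cnn1, Tagln and Myh11), against 7.27% of all genes, and 5604 genes in all had such a p in either direction. Without overlap and at least 1.5-fold lower were 4 of the 10 (Oxtr, Cnn1, Tagln and Lmod1), against 8.23% of all genes. At 2-fold this left Oxtr alone, against 2.63%. With a prior variance that follows brightness, limma called Oxtr, Cnn1 and Tagln lower, 3 of 10, against 1.48% of all genes. With only the 14199 IDs above the median brightness tested, the same 3 genes were called lower, against 3.18% of those tested. Without either terminal end bud array, limma with the trend no longer made these 3 calls, and without duct array 2 it no longer called Tagln. How many calls over all genes were lost in such fits was not counted. Whether the loss is particular to these genes is therefore not known. Each of these fits has 1 residual degree of freedom and assumes that the lone array varies like those of the other structure. The differences themselves stayed between -1.53 and -1.45 for Oxtr, between -1.12 and -0.81 for Cnn1 and between -0.84 and -0.61 for Tagln in these fits.

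**Figure D3:**
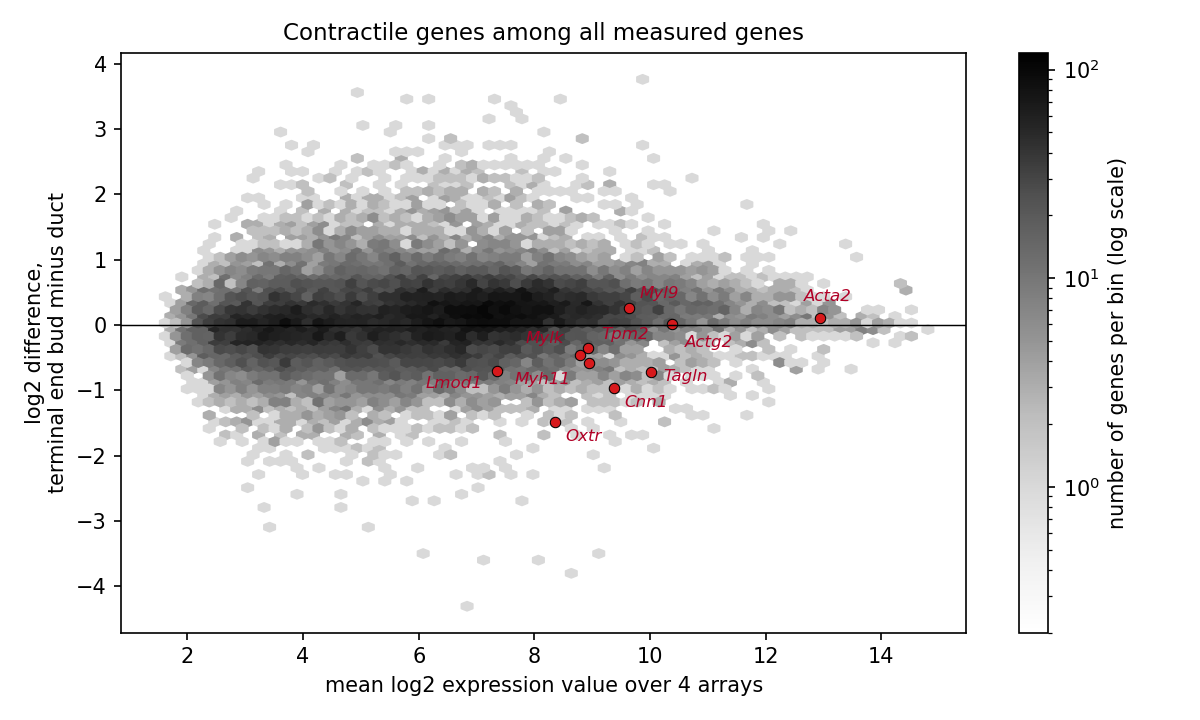
Log2 difference between terminal end buds and ducts (vertical axis) against the mean log2 expression value over the 4 arrays (horizontal axis) for all 28399 genes, as shaded bins with darker shades for more genes, and for the 10 contractile genes as red points. Oxtr lies at -1.49, with 192 genes below it, and Acta2, Actg2 and Myl9 lie at or above 0.

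The differences of the contractile genes were more negative after further scaling of the arrays, and the median of all genes moved down too. As deposited the median difference was -0.52 for the 10 genes and 0.11 for all genes. After quantile normalization the median difference of the 10 genes was -0.73 against 0.00 for all genes, and 8 of the 10 were lower without overlap, against 25.9% of all genes. After median centring the median difference of the 10 genes was -0.64 against -0.01 for all genes. Then 8 of the 10 were lower without overlap, against 26% of all genes, and Myl9 alone was higher without overlap, against 26.5%. In both cases the gene that joined the lower side was Actg2. Over all genes, 9606 were higher and 5561 lower without overlap on the deposited values, and 7259 were higher and 7348 lower after quantile normalization. With quantile normalization and the brightness trend together, limma called 5 of the 10 lower (Oxtr, Cnn1, Tagln, Myh11 and Mylk), against 2.67% of all genes. With median centring and the trend it called 4 of the 10 (Oxtr, Cnn1, Tagln and Myh11), against 2.44% of all genes.

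Each gene was also set against Acta2 on the same array, which removes a constant shift between arrays. Acta2 was taken as the reference after its values were seen, and as it differed little between the structures, these ratios largely restate the differences above and are no independent support. Oxtr minus Acta2 was -5.36 and -5.40 log2 units in terminal end buds and -3.84 and -3.74 in ducts, so the ratio was lower in terminal end buds, with a difference of -1.60 (SE 0.17). Cnn1 minus Acta2 was -4.08 and -4.13 in terminal end buds and -2.97 and -3.10 in ducts. The 7 genes that were lower on the deposited scale were also lower relative to Acta2 without overlap, from Tpm2 at -0.45 to Oxtr at -1.60, and with Actg2 this made 8 of the other 9 genes, against 25.1% of all genes. A fit of all genes relative to Acta2 gave an unadjusted p under 0.05 in limma for 6 of the other 9 genes (Oxtr, Cnn1, Tagln, Myh11, Mylk and Lmod1), all lower, against 9.62% of all genes. The smallest adjusted p among them was 0.066 for Oxtr. Actg2 relative to Acta2 differed by -0.10 (95% interval -0.56 to 0.36) and Myl9 relative to Acta2 by 0.15 (95% interval -0.33 to 0.63).

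**Figure D4:**
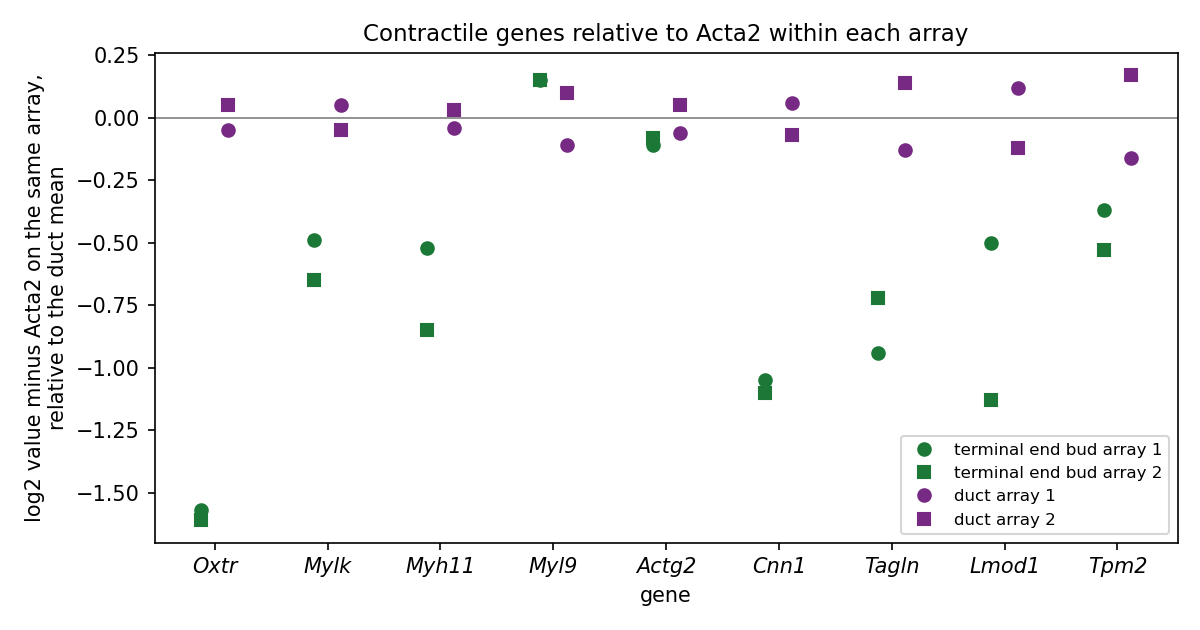
Log2 value of each gene minus that of Acta2 on the same array, shifted so that the duct mean is 0 (vertical axis), for both terminal end bud arrays (green) and both duct arrays (purple); circles are arrays numbered 1 and squares arrays numbered 2. Oxtr, Cnn1, Tagln, Myh11, Mylk, Lmod1 and Tpm2 lie below the duct arrays on both terminal end bud arrays, and so does Actg2 by a small margin. Actg2 and Myl9 stay within 0.15 of the duct mean on the terminal end bud arrays.

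The order of these relative differences was compared between members in the same way. Oxtr was lower relative to each of the other 9 genes. As its difference was the most negative of the 10, this largely restates the differences above and is no independent support. For Cnn1, the gene nearest to it, Cnn1 minus Oxtr was 1.28 and 1.27 in terminal end buds and 0.87 and 0.63 in ducts. Of single genes, 19.6% were lower and 33.8% higher without overlap, and no such share was computed for pairs of other genes. Of the 45 pairs, which share genes, 35 had ratios that did not overlap between the structures, in either direction. Without a background this count says nothing about these genes in particular. The other 10 pairs were Cnn1 with Tagln and with Lmod1, Tagln with Lmod1, Myh11 and Mylk, Lmod1 with Myh11, Mylk and Tpm2, and Mylk with Myh11 and with Tpm2. For any such ratio, an exact permutation test of 2 against 2 arrays cannot go below p = 0.33 (two-sided), and none is given.

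The mean of the 10 genes after subtraction of each array's median was 2.87 and 2.83 in terminal end buds and 3.44 and 3.47 in ducts. The difference of -0.60 log2 units was larger than the spread within either structure. Among other IDs above the median brightness, those whose profile over the 4 arrays lay nearest to the mean profile of the 10 genes were ENSMUSG00000005465, at a root mean square distance of 0.008 log2 units, and ENSMUSG00000069763, at 0.010. Within 0.1 log2 units of that profile lay 442 of 14189 IDs, so such likeness over 4 arrays is not particular to the IDs named. The profile averages genes whose differences ran from -1.49 (Oxtr) to 0.26 (Myl9), so it does not stand for each of them.

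Markers of basal, luminal, vascular, skeletal muscle, fibroblast, endothelial, fat and immune cells were listed by symbol but could not be looked up, because the table's IDs carry no symbols here. The labelled structures were therefore not checked against markers, and the part that other cell types have in these values was not tested. The other genes of the contraction pathway, 61 symbols in 3 lists, could not be looked up either and were left out.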

How the data were processed

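Terminal end bud and duct RNA was measured on 4 single-colour arrays, grouped by their titles. Per the submitters' processing notes, the authors made the deposited log2 values with RMA and used the genome build mm9. How values per Ensembl ID were formed is not given in the sources used here. Differences were fitted on all 28399 IDs in R 4.3.3 by lmFit and eBayes of limma 3.58.1, with no trend, with Benjamini-Hochberg adjustment over all IDs. A gene was called at an adjusted p under 0.05 with at least 1.5-fold change. Residual degrees of freedom were 2, to which the prior added 2.51.

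The members and lists were chosen with earlier results of these data known. All 10 members are named, by the list that defined them. RefSeq held their 10 symbols but paired 0 of the table's IDs with a symbol, so the pathway and marker lists could not be used. Protein sequences were not used here. Same-numbered arrays deviated together with r = 0.086 and no label pairs them, so the numbers were not treated as pairs. Scripts were tested on simulated data. Alternatives covered array scale, variance prior, brightness filter, replicate block and single arrays.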

Additional observations from a re-analysis of the deposited data

How the results depend on the processing

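Oxtr, Cnn1, Tagln, Myh11, Mylk, Lmod1 and Tpm2 stayed negative and Myl9 positive under every alternative run. Acta2 changed sign at -0.04 under quantile normalization, with and without the brightness trend, and at -0.01 under median centring, with and without the trend. Actg2 became -0.20 and -0.11 in the same fits, -0.01 without terminal end bud array 2, -0.02 without duct array 2 and -0.10 relative to Acta2. Without single arrays Actg2 ran from -0.02 to 0.04, Acta2 from 0.02 to 0.19, Myl9 from 0.24 to 0.27, Tpm2 from -0.42 to -0.27, and Oxtr from -1.53 to -1.45. Calls that the fit without a trend did not make were gained as follows. With the brightness trend or with bright IDs only these were Oxtr (-1.49), Cnn1 (-0.96) and Tagln (-0.72). With quantile normalization and the trend they were Oxtr (-1.68), Cnn1 (-1.17), Tagln (-0.93), Myh11 (-0.79) and Mylk (-0.67). With median centring and the trend they were Oxtr (-1.60), Cnn1 (-1.08), Tagln (-0.84) and Myh11 (-0.70). With the trend and 1 array left out, Cnn1 ran from -1.12 to -0.81 and Tagln from -0.84 to -0.61, at -0.77 without duct array 1. The fits relative to Acta2, without single arrays with the trend, and with centring and the trend were chosen after seeing the data.

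Of all genes, 0 were called, against 1485 with the trend, 1426 with bright IDs only, 1466 with quantile normalization and the trend, and 549 at an adjusted p under 0.10. Without single arrays 0 were called. Genes 2-fold apart without overlap numbered 2004, 873 among bright IDs, where fewer genes were tested, and 2395 to 3318 without single arrays. Genes with an unadjusted p under 0.05 numbered 5604, and 2721 to 6291 without single arrays. The mean difference of the 10 genes was -0.60 with array medians subtracted, -0.69 after quantile normalization and -0.49 as deposited. With the replicate number as a block the difference of Oxtr was -1.49 with adjusted p = 0.17 by limma, against 0.069 without the block. With it, 5733 genes had an unadjusted p under 0.05 by limma. That fit had no trend, and as 0 genes were called without the block, no call could be lost. The block was not run with the trend. The causes of these shifts were not tested. Signal over background is unknown without detection calls.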

Other observations

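For each of the 10 contractile genes the deposited values equal averages of several numbers of 5 decimals, within 0.005 units of the fifth decimal on all 4 arrays and with divisors searched up to 60. The smallest such divisor was 2 for Myl9, 3 for Cnn1, Oxtr and Lmod1, 4 for Tpm2, 7 for Tagln and Actg2, 11 for Acta2, 14 for Mylk and 35 for Myh11. What was averaged is not given in the sources used here. Lmod1, with arrays 0.62 log2 units apart in terminal end buds and 0.40 in ducts, and Oxtr, with arrays 0.03 and 0.07 apart, share the same divisor.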
